A study of Mus musculus with 16 samples.

Results

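Liver tumors from mice treated with a decoction of traditional Chinese medicine (TCM) were set against tumors of control mice. The comparison holds 8 of the 16 RNA-seq libraries of the series, chosen by their labels: 4 libraries of TCM tumor tissue and 4 of control tumor tissue, each with an animal code of its own. Every mouse carried HrasG12V, an activated form of the small GTPase H-Ras, so the control mice differ from the TCM mice by the decoction and not by the oncogene. The protocols name Ras-Tg and DEN (diethylnitrosamine, a liver carcinogen) together. The sources used here do not give whether these mice also received DEN, what drives the transgene, or what the decoction holds and at what dose. All groups are marked 3 months, which may be the age or the length of treatment. The other 8 libraries come from liver next to the tumors of the same 8 mice and enter here through a shared estimate of the spread and through a test of whether an effect differed between the tissues. The series asks by what mechanisms the decoction acts on liver tumors.

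Activated Ras signals through RAF, MEK and ERK to genes that drive growth, among them feedback genes of the DUSP, SPRY and ETV families and ligands of the EGF receptor. Hepatocytes are the cells that break down amino acids, make bile acids, oxidize drugs with cytochromes P450 and secrete plasma proteins, and liver tumors lose parts of these programs to differing degrees. A tumor sample also holds macrophages, endothelial cells, fibroblasts and lymphocytes, each with transcripts of its own.

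The 8 tumor libraries held 13947483 to 15747083 counts each. In a principal component analysis of these libraries, component 1 held 34.9% of the variance and ran from -48.98 to -12.52 in control and from 15.75 to 48.2 in TCM tumors. The control tumor nearest to the TCM tumors was replicate 4. Control tumor 4 also stood apart in several marker sets: the mean level of its neutrophil markers lay 1.951 log2 units above the mean of the 8 libraries, against -0.199 to 0.065 in the other 3 controls, and results that rest on it are given with and without it. Albumin took 9.02% to 13.2% of the counts. CPM are counts scaled to the library total multiplied by a scaling factor of each library (TMM). Values are given for replicates 1 to 4 in order here and below. Hras itself had 39.9, 45.2, 41.9 and 31.4 CPM in control and 37.5, 29.4, 36.2 and 43 in TCM tumors. Whether those counts include reads of the transgene was not tested. The Hras groups overlapped and the gene was not called (log2 fold change -0.12 ± 0.13 SE, adjusted p = 0.619, by the quasi-likelihood test of edgeR with Benjamini-Hochberg adjustment).

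Of 14865 genes tested, 1082 (7.28%) were called at an adjusted p under 0.05 by the same test: 677 (4.55%) were higher and 405 (2.72%) lower in TCM tumors. At least 2-fold changes made up 405 of the calls, 239 of them higher and 166 lower. In 937 of the called genes all 4 TCM tumors lay on 1 side of all 4 control tumors, as they did in 2360 (15.9%) of all genes tested. Typical calls were moderate, with a median size of 0.76 log2 units among genes called higher and 0.89 among genes called lower. The number of calls depended on which library was left out: it was 665, 404 and 583 without control tumor 1, 2 or 3 and 663 and 407 without TCM tumor 1 or 3, while 1250 genes were called without control tumor 4. A fit of the 8 tumor libraries alone called 786 genes and shared 57.9% of the 1082; of 139 called genes followed through all settings, 35 lost their call in it.

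**Figure D1:**
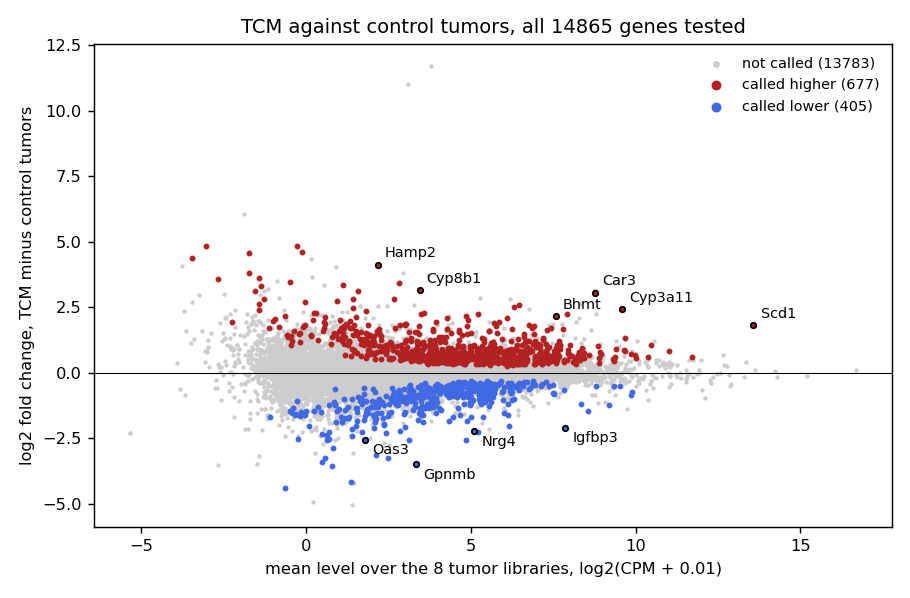
Each point is 1 of 14865 genes; the horizontal axis gives its mean level over the 8 tumor libraries as log2(CPM + 0.01) and the vertical axis the log2 fold change, TCM minus control tumors. The 677 genes called higher (red) and the 405 called lower (blue) are spread over all levels, and Scd1 is the most abundant of the genes named in the plot.

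Genes of hepatocyte metabolism and of the cell cycle were among the groups with many rises. Macrophage markers, interferon-stimulated genes and outputs of ERK signaling were among those with many falls. In this bulk tissue, fewer cells of a type and less RNA per cell cannot be told apart. Of 67 tested genes of the urea cycle and of amino acid breakdown, 33 were called, all of them higher. Of 59 cytochrome P450 and other phase I genes, 15 were called higher and 1 lower, and of 74 nuclear genes for subunits of the respiratory chain 17 were called, all higher. Of 54 cell cycle genes 14 were called, all higher. Of 21 markers of recruited and lipid-associated macrophages 7 were called, all lower. Of 54 interferon-stimulated genes 10 were called and of 26 RAS to ERK output genes 5, all of them lower. These shares, and those of the lists below, are to be read against the shares over all genes tested. Those were 4.55% called higher and 2.72% called lower.

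**Figure D2:**
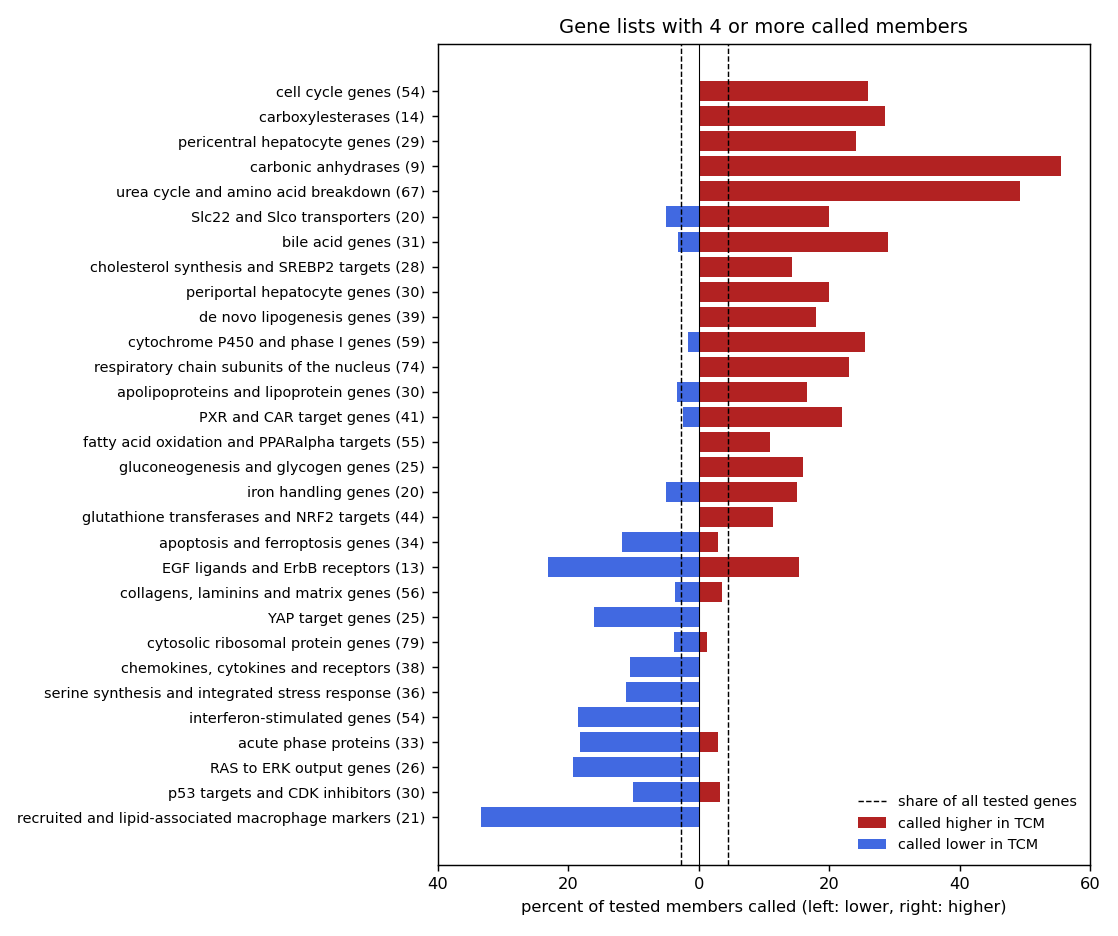
Percent of the tested members of each gene list that were called higher (red, to the right) or lower (blue, to the left) in TCM tumors, for lists with 4 or more called members; the number tested is in parentheses and dashed lines mark 4.55% and 2.72%, the shares over all genes. Carbonic anhydrases (5 of 9) and the genes of the urea cycle and amino acid breakdown (33 of 67) reach farthest to the right, and the macrophage markers (7 of 21) farthest to the left.

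Many enzymes that break down amino acids rose, 33 of the 67 tested. The median log2 fold change of the 67 tested members was 0.57, against 0.002 over all genes, and 59 of 67 had a positive value. Betaine-homocysteine methyltransferase (Bhmt), which returns homocysteine to methionine with betaine, had 72.1, 44.3, 89.2 and 73.6 CPM in control and 447, 231, 357 and 207 in TCM tumors. Every TCM tumor was at least 2-fold above the highest control tumor, and the log2 fold change was 2.15 ± 0.37 (adjusted p = 0.00468). Its pseudogene Bhmt-ps1 (2.17 ± 0.38) is uncertain, since 72.3% of its 50-base words also occur in other genes. Cystathionine beta-synthase (Cbs), which draws homocysteine into cysteine synthesis, had 76.6, 64.5, 68.4 and 134 CPM in control and 240.2, 181, 240 and 156 in TCM tumors (1.25 ± 0.23, adjusted p = 0.00639). Control tumor 4 came close to TCM tumor 4 in Cbs, and the groups did not overlap.

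Single genes of choline and glycine use were called as well, among them Dmgdh, Gldc, Pemt and Gcat. Dimethylglycine dehydrogenase (Dmgdh), which acts after Bhmt on the choline route, had 72.7, 50.6, 67 and 60.4 CPM in control and 169.9, 141, 156 and 119 in TCM tumors (1.23 ± 0.17, adjusted p = 0.00163). Glycine decarboxylase (Gldc) had 128, 150.2, 128 and 121 against 244, 209, 239 and 248 CPM (0.83 ± 0.13, adjusted p = 0.00267). In both genes all TCM tumors lay above all controls. Phosphatidylethanolamine methyltransferase (Pemt), which makes phosphatidylcholine, had 54.1, 53.5, 53.9 and 58 CPM in control and 124, 122, 119 and 91.8 in TCM tumors (1.06 ± 0.13, adjusted p = 0.000967). The 4 controls were within a few CPM of each other and TCM tumor 4 was the lowest of its group. Gcat, a mitochondrial enzyme of threonine breakdown, had 1 of the lowest p of all genes (33, 31.5, 31.2 and 36.2 against 67.9, 73.3, 75.4 and 64.9 CPM, log2 1.09 ± 0.11, adjusted p = 0.000231), although 46.7% of its 50-base words are shared with other genes.

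Tryptophan, histidine and proline pathways had called members as well. The tryptophan enzyme Haao, on the way to NAD, had 112, 86, 96.8 and 104 CPM in control and 253, 183, 236 and 178 in TCM tumors (1.09 ± 0.14, adjusted p = 0.000967). Histidine ammonia-lyase (Hal) had 132 ± 18.5 CPM in control and 253 ± 65.4 in TCM tumors (SD, n = 4; 0.94 ± 0.19, adjusted p = 0.00992). TCM tumor 4 was the lowest TCM tumor in both genes and came near the highest control in Hal. Aldh4a1 of proline breakdown (0.86 ± 0.11; 35.5% of its words shared), the GABA enzyme Aldh5a1 (0.71 ± 0.08) and the kynurenine route enzyme Aldh8a1 (0.73 ± 0.09) were also called, with no overlap between groups. Nipsnap1, a mitochondrial matrix protein, rose from 59.7 to 76.9 CPM in control to 118 to 154 in TCM tumors (0.99 ± 0.10, adjusted p = 0.000231).

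The urea cycle itself had both called and uncalled members. Ornithine transcarbamylase (Otc) had 99.7, 69.7, 72.2 and 60.5 CPM in control and 150.2, 226, 202 and 66.5 in TCM tumors (1.09 ± 0.27, adjusted p = 0.0245), and argininosuccinate synthase (Ass1) had 169, 161, 134 and 118 against 269.8, 253, 289 and 184 (0.78 ± 0.17, adjusted p = 0.0171; 55.3% of its words shared). Other members of the cycle, chosen after their values were seen, were not called: Cps1 had a log2 fold change of -0.19 ± 0.22 (adjusted p = 0.64), Arg1 of -0.21 ± 0.17 (adjusted p = 0.487) and Asl of 0.13 ± 0.30 (adjusted p = 0.833). Otc in TCM tumor 4 lay among the controls. The list's count fell to 19 without TCM tumor 3; Ass1 lost its call there (adjusted p = 0.0594) and Otc without control tumor 2 or 3 or TCM tumor 2 or 3 (p of 0.056 to 0.0774 after adjustment).

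Several cytochromes P450 and partner enzymes of drug metabolism rose, led by Cyp3a11, the main mouse target of the nuclear receptor PXR. Cyp3a11 had 269, 223, 248 and 226 CPM in control and 1997, 730, 1411 and 1078 in TCM tumors. The controls lay close together, all TCM tumors were at least 2-fold above them, and the means differed 5.39-fold (log2 2.43 ± 0.29, adjusted p = 0.000611). Cyp3a25 had 75.3, 46.6, 87.2 and 103 against 308, 228, 227 and 199 CPM (1.63 ± 0.21, adjusted p = 0.00106; 26.8% of its words shared). Per length, on the authors' FPKM scale, the level of Cyp3a11 was 49.9 ± 3.87 in control and 260.2 ± 116 in TCM tumors (SD, n = 4), above that of Cyp3a25 with 25.5 ± 8.58 and 75.4 ± 17.6.

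Other P450 genes differed in how much they rested on single tumors. Cyp2c55 had 0.254, 0.208, 0.129 and 1.79 CPM in control and 10, 3.23, 5.27 and 3.08 in TCM tumors (3.12 ± 0.67, adjusted p = 0.0137), and its log2 fold change was 4.74 without control tumor 4, the highest control. Cyp2j5, an arachidonic acid epoxygenase, had 44, 29.8, 59.2 and 74.3 against 177, 166, 145 and 89.2 (1.48 ± 0.24, adjusted p = 0.00392). In Cyp2j5 the lowest TCM tumor, replicate 4, was above the highest control, replicate 4. Cyp2c29 (1.78 ± 0.44), Cyp2c50 (2.23 ± 0.55) and Cyp2c54 (2.27 ± 0.53; 25.7% of its words shared) were called although TCM tumor 4 lay within the range of the controls. Cyp2c40, a member of the same family, was the 1 P450 gene called lower (-1.21 ± 0.35; 72.1% of its words shared). The alcohol dehydrogenase Adh4 (1.64 ± 0.31), the aldehyde dehydrogenase Aldh1a7 (1.30 ± 0.22) and the retinol dehydrogenase Rdh16 (7.61, 5.4, 7.2 and 5.07 against 33.8, 18.6, 20.4 and 24.6 CPM, 1.95 ± 0.33) rose without overlap. Cyp2c29 and Cyp2c50 lost their calls without control tumor 1, 2 or 3 or TCM tumor 1 or 3 (p of 0.0555 to 0.0748 after adjustment), Cyp2c54 without control tumor 2 or 3 or TCM tumor 1 (0.0574 to 0.0643) and Cyp2c40 without control tumor 1, 2 or 3 or TCM tumor 1, 2 or 4 (0.0703 to 0.146); without control tumor 4 the log2 fold change of Cyp2c50 was 2.86.

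Of 41 targets of PXR and of CAR, a related receptor, 9 were called higher and 1 lower, with a median log2 fold change of 0.30. The median was 0.098 without control tumor 4 and 0.077 in the fit of the 8 tumor libraries alone, and 17 of the 41 had a negative value. Cyp2b10, the classic CAR target, was low in tumors, with 6 counts over the 4 control and 45 over the 4 TCM libraries: 0.127, 0.0693, 0.129 and 0.0597 CPM in control and 1.52, 0.31, 0.361 and 0.684 in TCM tumors (2.82 ± 0.77, adjusted p = 0.0381). The carboxylesterase Ces2a, which hydrolyses ester drugs, had 42.9, 35.2, 37.2 and 29.5 against 141, 121, 136 and 60.6 CPM (1.66 ± 0.23, adjusted p = 0.00163), and Ces1e rose by 1.24 ± 0.24. Groups did not overlap in these 3 genes. The efflux pump Abcc4 was the 1 member called lower, with 16.9, 29.7, 28.3 and 18.4 against 12.6, 7.2, 3.39 and 13.7 CPM (-1.34 ± 0.36, adjusted p = 0.0344). The P450 and phase I count was 7, 8, 9 and 9 without control tumor 2 or 3 or TCM tumor 1 or 3, and the PXR and CAR count 5 without control tumor 2 or 3 or TCM tumor 1. Abcc4 lost its call without control tumor 2 or 3 or TCM tumor 2 or 3 (p of 0.0716 to 0.102 after adjustment) and Cyp2b10 without control tumor 1, 2, 3 or 4 or TCM tumor 1 or 3 (0.0542 to 0.116), with a log2 fold change of 2.17 without TCM tumor 1. Among 44 glutathione transferases and NRF2 targets 5 were called (11.4%), all higher, with a median of -0.077. Among 31 glucuronosyltransferases and sulfotransferases 2 were called, both higher, with a median of 0.105. That share of 6.45% is near the 4.55% of all genes tested that were called higher. Both counts were 0 without control tumor 2.

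**Figure D3:**
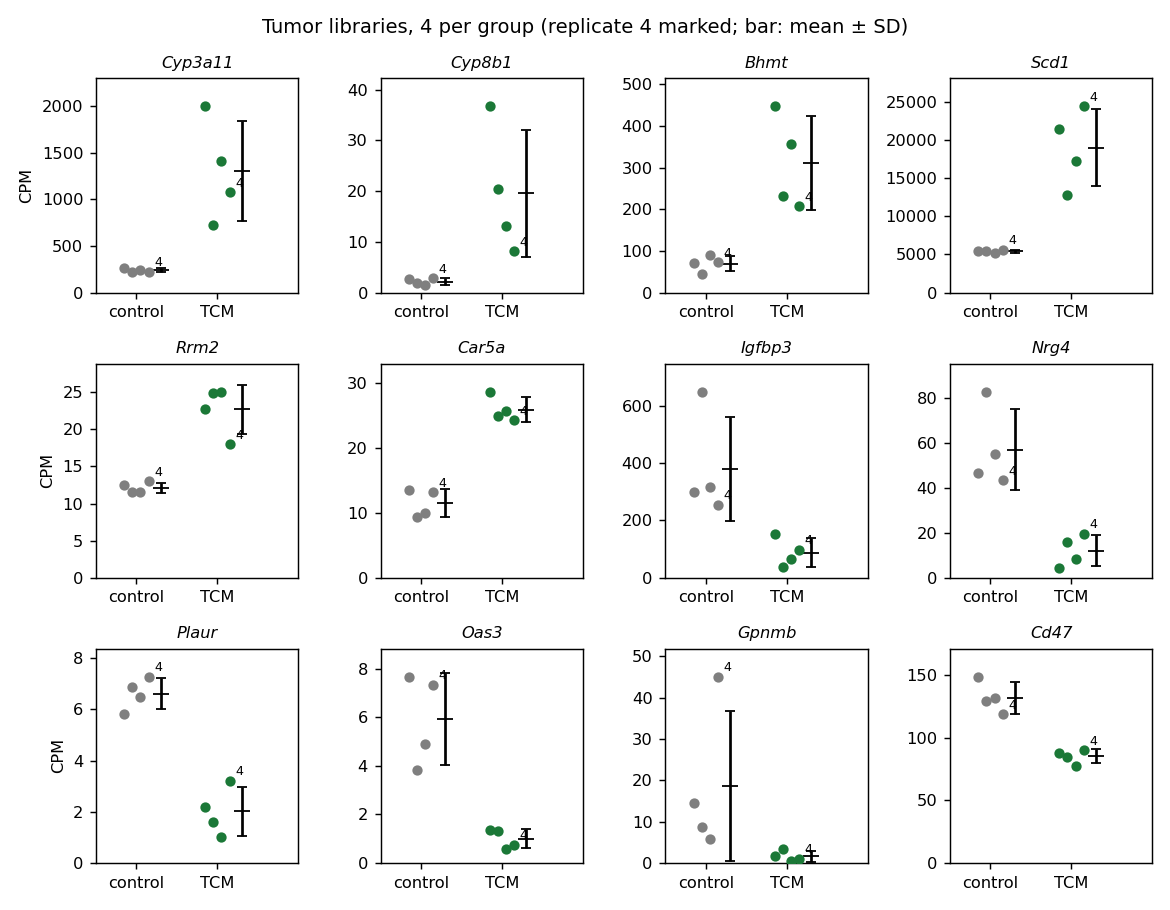
CPM of 12 genes in each tumor library (grey, control; green, TCM), with the group mean and SD (n = 4) as bars and replicate 4 marked. In all 12 genes the 4 TCM tumors lie on 1 side of the 4 control tumors, and control tumor 4 is the highest point of Gpnmb at 45.1 CPM.

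Several bile acid genes rose, with 9 of 31 called higher and 1 lower and a median log2 fold change of 0.56. Cyp8b1, the 12-alpha-hydroxylase that sets how much cholic acid is made, had 2.6, 1.94, 1.41 and 2.81 CPM in control and 36.7, 20.4, 13.2 and 8.14 in TCM tumors. Its lowest TCM value, in replicate 4, was above the highest control, and the means differed 8.96-fold (log2 3.16 ± 0.49, adjusted p = 0.00289). Cyp7a1, the rate-limiting enzyme of the classic route, was low in both groups, with 7.1, 1.45, 1.35 and 4.12 against 6.14, 7.51, 3.46 and 2.87 CPM, and was not called (0.51 ± 0.66, adjusted p = 0.676). The bile salt export pump Abcb11 had 118, 100.2, 104 and 172 CPM in control and 292, 308, 287 and 253 in TCM tumors (1.21 ± 0.26, adjusted p = 0.0137). Nr0b2 (SHP), a repressor induced by the bile acid receptor FXR, had 10, 12.7, 16.7 and 17.5 against 50.7, 26.1, 49.7 and 29.6 CPM (1.45 ± 0.22, adjusted p = 0.00223). Both genes lay apart between the groups, and so did Amacr, a peroxisomal racemase of side chain shortening (0.72 ± 0.12). Scp2, its partner thiolase, rose by 0.86 ± 0.19, with 41.4% of its words shared.

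Lipid synthesis genes changed in part. The stearoyl-CoA desaturase Scd1, which makes monounsaturated fatty acids, had 5518, 5436, 5142 and 5602 CPM in control and 21443, 12787, 17298 and 24399 in TCM tumors (1.81 ± 0.32, adjusted p = 0.00508). The 4 controls differed by little and each TCM tumor was at least 2-fold above them. Elovl5, which elongates polyunsaturated fatty acids, had 445, 405, 468 and 557 against 1256, 852, 1309.9 and 1226 CPM (1.31 ± 0.21, adjusted p = 0.00291). The acetyl-CoA synthetase Acss2 had 74.7, 60.2, 67.8 and 123 against 287, 240.3, 278 and 257 CPM (1.70 ± 0.24, adjusted p = 0.00153). All 3 genes kept the groups apart. In all, 7 of 39 lipogenesis genes were called, all higher (median 0.46), but Fasn (0.21 ± 0.43, adjusted p = 0.804), Acly (0.29 ± 0.26, adjusted p = 0.537) and the regulator Srebf1 (-0.29 ± 0.43, adjusted p = 0.72), chosen after their values were seen, were not. The count was 4 without control tumor 2 or 3 or TCM tumor 1 and 3 without TCM tumor 3.

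Of 28 cholesterol synthesis genes and SREBP2 targets 4 were called, all higher, with a median of 0.54. Acat2, a cytosolic thiolase at the start of sterol synthesis, had 68.4, 50.6, 48.1 and 95.9 against 165, 119, 179 and 149 CPM (1.22 ± 0.26, adjusted p = 0.0138), with 45.9% of its words shared. The count was 2 without control tumor 1, 2 or 3 or TCM tumor 3.

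Of the nuclear genes of the respiratory chain, 17 were called higher. The 74 nuclear respiratory chain genes had a median log2 fold change of 0.32, and 72 of the 74 had a positive value. Transcripts of the mitochondrial genome had a median of 0.35, with 12 of 13 values positive and 1 called. Their summed level was 22000.4 to 31378 CPM in control and 27007 to 39942 in TCM tumors, so the groups overlapped. In mean level, control tumor 4 was the highest control for these transcripts, at 0.227 log2 units from the mean of the 8 libraries. For the respiratory chain genes it was the lowest library, at -0.266. Cytosolic ribosomal protein genes had a median of -0.19 and 61 of 79 negative values. The part of mitochondrial or ribosomal transcripts in the respiratory chain result was not tested. Sdha, the flavoprotein of complex II, had 218, 197, 207 and 191 CPM in control and 349.9, 288, 319.7 and 295 in TCM tumors (0.63 ± 0.10, adjusted p = 0.00267). The groups lay well apart in Sdha, with a difference larger than the spread within either. Atp5b, the catalytic subunit of ATP synthase, had 556, 541, 562 and 536 against 765, 677, 823 and 702 CPM (0.44 ± 0.10, adjusted p = 0.0218). Cox7c, a small subunit of complex IV, rose from 3.04 ± 0.705 to 10.1 ± 1.86 CPM (SD, n = 4; 1.73 ± 0.19, adjusted p = 0.000272), with 27.9% of its words shared. Etfdh, which passes electrons from fatty acid oxidation to ubiquinone, had 77.2, 60.4, 70.4 and 77.6 against 143, 122, 122 and 127 CPM (0.85 ± 0.11, adjusted p = 0.000967) and was 1 of 6 called, all higher, among 55 genes of fatty acid oxidation. The respiratory chain count was 4, 7 and 11 without control tumor 2, 3 or 4 and 8 and 3 without TCM tumor 1 or 3, the fatty acid oxidation count was 2 without control tumor 2 or TCM tumor 3, and Atp5b lost its call without control tumor 2 or TCM tumor 3 (p of 0.0608 to 0.0768 after adjustment).

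Several of the largest rises were single genes of other roles. Coq8a, a kinase-like protein needed for ubiquinone synthesis, had 17.1, 13.7, 26.5 and 37.3 CPM in control and 200.3, 132, 127 and 82.5 in TCM tumors (2.52 ± 0.37, adjusted p = 0.00201). The muscle and liver carbonic anhydrase Car3 had 46.7, 16.3, 68.6 and 239 against 1268, 619, 861 and 357 CPM (3.06 ± 0.63, adjusted p = 0.0115). Control tumor 4 had the highest Car3 of the controls, and without it the log2 fold change was 4.16. Car5a, the mitochondrial form that supplies bicarbonate to the urea cycle, had 13.5, 9.35, 10 and 13.2 against 28.7, 25, 25.7 and 24.3 CPM (1.17 ± 0.12, adjusted p = 0.000272). Of the words of Car5a, 22.4% lie in a gene of the opposite strand. Car3 and Car5a made, with Car1, Car8 and Car14, 5 called of 9 carbonic anhydrases, all higher. The count was 3, 2 and 3 without control tumor 2 or 3 or TCM tumor 1. The liver growth hormone receptor Ghr had 79.6, 67.2, 79.4 and 126 against 202, 188, 216 and 135 CPM (1.07 ± 0.18, adjusted p = 0.00454).

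The remaining large rises had less stable calls. The ubiquitin ligase Rnf125 (16.2, 16.6, 23.5 and 41.6 against 163, 65.2, 60.3 and 82.1 CPM, 1.92 ± 0.42) lost its call without control tumor 2 (adjusted p = 0.0523). The secreted matrix protein Spon2 (2.22 ± 0.55) lost it without control tumor 1, 2 or 3 or TCM tumor 3 (0.0566 to 0.0683), and Plekhd1 (2.35 ± 0.63, 2.94 without control tumor 4) without control tumor 1, 2 or 3 or TCM tumor 1 or 3 (0.0534 to 0.11). Hamp2, a hepcidin gene, had 0.571, 0.277, 0.45 and 0.597 CPM in control and 5.47, 4.9, 23.1 and 0.753 in TCM tumors (4.13 ± 1.20, adjusted p = 0.0489), with TCM tumor 3 far above the others. Without TCM tumor 3 its log2 fold change was 2.94, and the call was lost without any 1 library but TCM tumor 4 (p of 0.0563 to 0.175 after adjustment).

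The counts of zonal and male-biased hepatocyte genes moved with single tumors. Of 29 pericentral genes, expressed around the central vein under Wnt signaling, 7 were called, all higher, with a median of 0.80. The mean level of these genes was -0.325, -0.675, -0.6 and 0.162 log2 units from the mean of the 8 libraries in control tumors and 0.835, 0.531, 0.475 and -0.403 in TCM tumors, so that replicate 4 of each group lay on the other group's side. Without control tumor 4, 16 were called higher and 1 lower, without TCM tumor 4, 14 were called, and without control tumor 1, 2 or 3 or TCM tumor 1 or 3 the count was 4, 2, 2, 2 and 3. Glul, glutamine synthetase of the last pericentral cell layer, had 69.8, 44.7, 58.4 and 125 CPM in control and 201, 148, 204 and 62.3 in TCM tumors and was not called (1.05 ± 0.33, adjusted p = 0.0657). Cyp1a2 (1.24 ± 0.38, adjusted p = 0.0568) and Cyp2e1 (1.62 ± 0.48, adjusted p = 0.0545; chosen after its values were seen) were not called either, and in each of the 3 TCM tumor 4 fell among the controls. Without control tumor 4 the values were 1.43 (adjusted p = 0.0153), 1.62 (0.0195) and 2.31 (0.00796). Notum, a secreted Wnt inhibitor and Wnt target, was called with all libraries (1.84, 2.01, 1.93 and 3.28 against 9.54, 6.64, 7.21 and 3.56 CPM, 1.57 ± 0.34, adjusted p = 0.0138), although 31.7% of its words lie in a gene of the opposite strand and the call ended with the mouse as a random block (adjusted p = 0.0515). Of 30 periportal genes 6 were called, all higher (median 0.47), with 3 without control tumor 2 and 2 without TCM tumor 3.

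Major urinary proteins and other male-biased genes, which respond to the pulsed growth hormone of male mice, were high in control tumor 4. All tumor libraries carried transcripts of the Y-linked Ddx3y, at 52.9 to 78.7 CPM in control and 67.7 to 76.7 in TCM tumors. Mup7 and Elovl3 were chosen after their values were seen. Mup7 had 12.4, 2.56, 20.9 and 589 CPM in control and 2089, 279.7, 391 and 170.3 in TCM tumors (2.23 ± 1.25, adjusted p = 0.288). Without control tumor 4 the same value was 5.95 (adjusted p = 0.00694), and 90.2% of its words are shared with other genes. The fatty acid elongase Elovl3 had 0.0634, 0, 0.0643 and 6.93 CPM in control and 70.1, 9.49, 14.2 and 2.33 in TCM tumors (3.72 ± 1.51, adjusted p = 0.142), and 8.87 without control tumor 4 (adjusted p = 0.0434), a fitted value that rests on controls at or near 0 counts. In both genes control tumor 4 lay within the range of the TCM tumors and the other 3 controls below it. Of the 41 genes tested, 1 was called with all libraries, Keg1 (26, 11, 25.6 and 31 against 96.5, 60.2, 64.6 and 61.9 CPM, 1.60 ± 0.32, adjusted p = 0.0103), and 27 were called, all higher, without control tumor 4. The list's median was 1.595 with and 3.595 without control tumor 4.

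**Figure D4:**
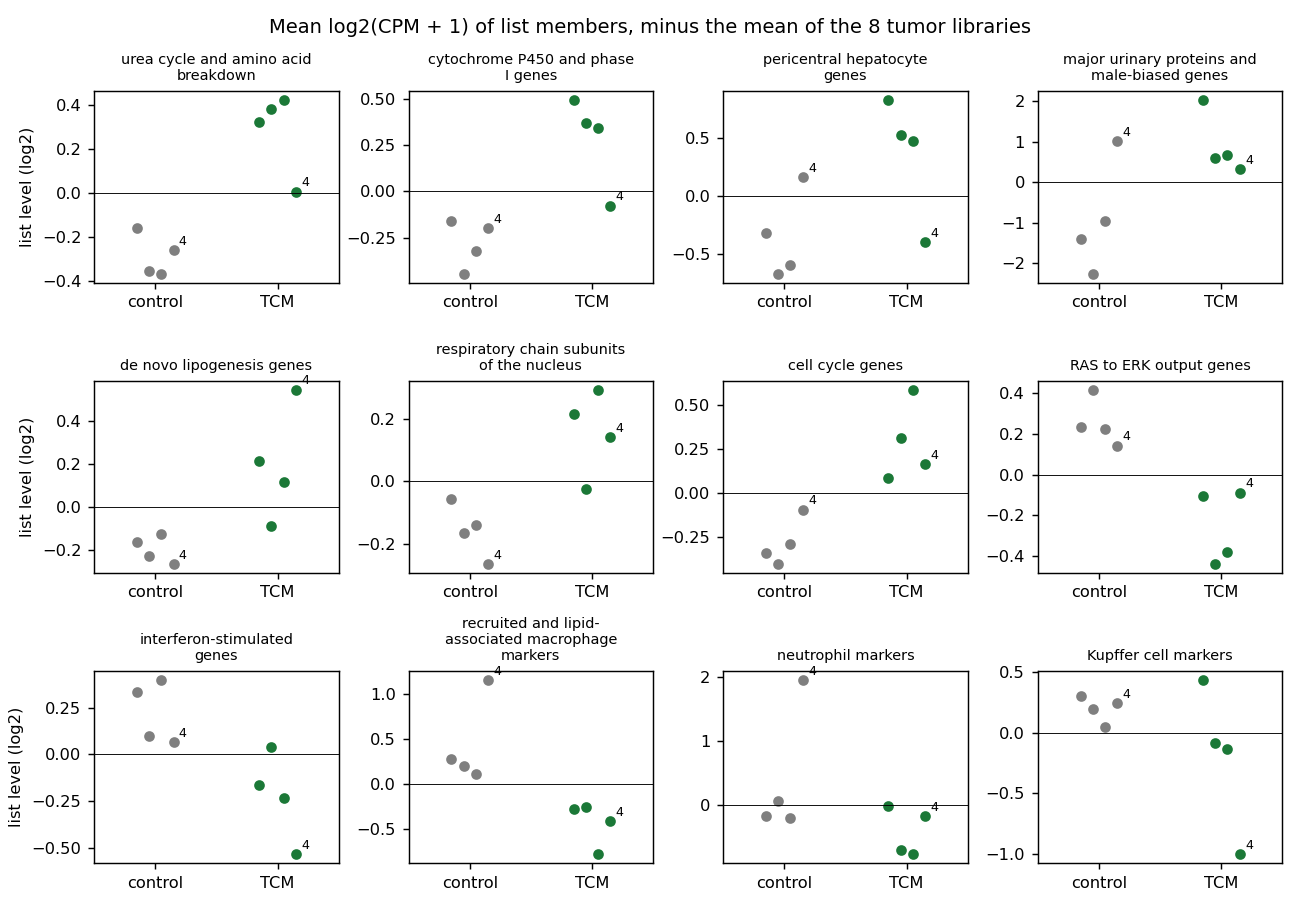
Mean log2(CPM + 1) of the tested members of 12 gene lists in each tumor library (grey, control; green, TCM), as the difference from the mean of the 8 libraries, with replicate 4 marked. Control tumor 4 lies with the TCM tumors in the major urinary protein panel (1.004) and far above all others in the neutrophil panel (1.951), and TCM tumor 4 is the lowest TCM tumor in the pericentral panel (-0.403).

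Cell cycle genes were higher in TCM tumors. Of 54 tested, 14 were called, all higher, and the median log2 fold change was 1.005. In 28 of the 54 the TCM tumors lay above all control tumors. Over all genes tested the groups lay apart in 15.9%, counting both directions. Rrm2, the ribonucleotide reductase subunit that supplies DNA synthesis, had 12.5, 11.6, 11.5 and 13 CPM in control and 22.8, 24.9, 25.1 and 18 in TCM tumors (0.90 ± 0.19, adjusted p = 0.0131). Cdca3, a trigger of mitotic entry, had 3.49, 3.26, 4.11 and 2.93 against 6.26, 9.8, 23.2 and 10.7 CPM (1.85 ± 0.41, adjusted p = 0.0162), and cyclin A2 (Ccna2) had 4.82, 4.36, 4.95 and 5.79 against 8.69, 16.8, 24.7 and 9.31 (1.57 ± 0.39, adjusted p = 0.0259). TCM tumor 3 was the highest in all 3 genes. The proliferation marker Mki67 had 13.1, 12.4, 13.5 and 15.9 CPM in control and 19.4, 31.1, 45.1 and 25.6 in TCM tumors, without overlap, and was not called (1.14 ± 0.38, adjusted p = 0.0773). The replication clamp Pcna, chosen after its values were seen, had -0.02 ± 0.13 (adjusted p = 0.943). The count was 3, 1 and 2 without control tumor 1, 2 or 3 and 7 and 1 without TCM tumor 2 or 3; Cdca3 lost its call without control tumor 2 or TCM tumor 3 (p of 0.0503 to 0.0601 after adjustment) and Ccna2 without control tumor 1, 2 or 3 or TCM tumor 3 (0.0568 to 0.0955).

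Promoters of late cell cycle genes often carry a cell cycle homology region, and 2 of those whose genes were called are shown with it. The windows run from 250 bases before to 50 bases after the transcription start (RefSeq, GRCm38.p6): Cdca3 at chr6:124829926-124830225, plus strand, and Aurka, the mitotic kinase Aurora A, at chr2:172370521-172370820, minus strand, both written 5′ to 3′ along the gene with TTTGAA in capitals.
Cdca3: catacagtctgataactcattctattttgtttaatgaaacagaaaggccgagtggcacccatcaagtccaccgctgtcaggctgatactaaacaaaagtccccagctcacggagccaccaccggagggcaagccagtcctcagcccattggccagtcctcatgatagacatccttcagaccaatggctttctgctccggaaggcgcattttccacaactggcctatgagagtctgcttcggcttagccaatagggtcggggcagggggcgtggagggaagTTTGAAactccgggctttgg
Aurka: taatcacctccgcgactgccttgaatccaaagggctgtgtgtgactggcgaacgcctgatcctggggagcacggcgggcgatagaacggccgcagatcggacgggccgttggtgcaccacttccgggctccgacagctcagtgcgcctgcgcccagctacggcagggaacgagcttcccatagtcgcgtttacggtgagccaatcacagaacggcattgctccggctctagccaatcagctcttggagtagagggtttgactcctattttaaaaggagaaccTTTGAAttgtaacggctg
In both windows the letters lie shortly after the start of transcription. TTTGAA was searched on both strands and occurred in 24 of 44 tested cell cycle genes with a window (54.5%), in 8 of the 12 called ones (66.7%) and in 14.8% of all 10509 tested genes with a window. Rrm2 was among the called genes without it. A match of letters is a description of the sequence and not of a bound factor. Aurka had 4.18, 4.64, 3.73 and 3.76 CPM in control and 7.84, 7.51, 10.2 and 7.32 in TCM tumors (1.01 ± 0.28, adjusted p = 0.0388), and lost its call without control tumor 1, 2, 3 or 4 or TCM tumor 1 or 3 (0.0584 to 0.116).

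Outputs of RAS to ERK signaling were lower in TCM tumors. Of 26 tested, 5 were called, all lower, 23 had a negative value and the median was -0.50. In 12 the TCM tumors lay below all controls, and 15.9% of all genes tested had groups apart in either direction. Plaur, the urokinase receptor, had 5.83, 6.86, 6.49 and 7.28 CPM in control and 2.19, 1.61, 1.01 and 3.22 in TCM tumors (-1.72 ± 0.33, adjusted p = 0.00892). The early response gene Ier3 had 14.9, 16.1, 14.6 and 21.9 against 8.75, 2.73, 2.6 and 7.94 CPM (-1.61 ± 0.38, adjusted p = 0.0198), and Etv4, an ERK-induced transcription factor, had 5.26, 12, 4.05 and 3.58 against 2.31, 1.36, 1.37 and 3.15 (-1.60 ± 0.44, adjusted p = 0.0382). The groups did not overlap in any of the 3. Dusp6, the phosphatase of ERK and its best known feedback gene, had 181 ± 9.73 CPM in control and 129 ± 14.3 in TCM tumors (SD, n = 4), without overlap, and was not called (-0.49 ± 0.20, adjusted p = 0.145). Spry2 (-0.52 ± 0.30, adjusted p = 0.3), Spry4 (-0.08 ± 0.18, adjusted p = 0.839) and cyclin D1 (Ccnd1, -0.40 ± 0.28, adjusted p = 0.388), chosen after their values were seen, were not called. The count was 2, 1 and 2 without control tumor 1, 2 or 3 and 3, 2 and 1 without TCM tumor 1, 2 or 3; Ier3 lost its call without control tumor 2 or TCM tumor 3 (p of 0.05 to 0.0599 after adjustment) and Etv4 without control tumor 1, 2 or 3 or TCM tumor 1, 2 or 3 (0.0506 to 0.161).

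Of the EGF receptor family, 3 ligands fell and 2 receptors rose. Nrg4, a neuregulin that binds ErbB4, had 46.6, 82.7, 54.8 and 43.3 CPM in control and 4.38, 15.9, 8.22 and 19.6 in TCM tumors; the highest TCM tumor was below the lowest control and the means differed 4.72-fold (log2 -2.24 ± 0.38, adjusted p = 0.00454). Hbegf had 8.11, 14.6, 7.13 and 7.46 against 5.17, 3.23, 4.69 and 3.15 CPM (-1.20 ± 0.26, adjusted p = 0.014), and betacellulin (Btc) had 18.5, 17, 21.8 and 17.8 against 9.54, 8.44, 6.2 and 12.2 (-1.04 ± 0.24, adjusted p = 0.0204). Control tumor 2 had the highest Nrg4 and Hbegf. The receptors Erbb3 (68.4, 77.9, 93.3 and 93.8 against 162, 173, 211 and 129 CPM, 1.02 ± 0.27, adjusted p = 0.0344) and Erbb4 (1.73 ± 0.47, adjusted p = 0.0368; 2.32 without control tumor 4) were called higher. Among 13 tested members 3 were thus lower and 2 higher. Both receptors lost their calls without control tumor 1, 2 or 3 or TCM tumor 1, 2 or 3 (p of 0.053 to 0.106 after adjustment), Hbegf without control tumor 2 (0.0531) and Btc without control tumor 3 or TCM tumor 3 (0.0604 to 0.0663).

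Igfbp3, Gprc5a and Cxcl17 were among the largest falls. Igfbp3, the main carrier of insulin-like growth factors, had 298, 649, 315 and 254 CPM in control and 152, 37.5, 64.2 and 97.6 in TCM tumors (-2.11 ± 0.37, adjusted p = 0.00531). Control tumor 2 was far above the other controls, and all TCM tumors were below the lowest control. Gprc5a, a retinoic acid induced receptor, had 5.01, 16.3, 7.71 and 6.69 against 3.04, 0.682, 1.51 and 1.92 CPM (-2.31 ± 0.45, adjusted p = 0.00886), and the chemokine Cxcl17 had 38.7, 91.8, 40.4 and 27.3 against 14.5, 4.22, 9.95 and 4.31 (-2.58 ± 0.44, adjusted p = 0.00454). Control tumor 2 was again the highest in both. The TGF-beta receptor Tgfbr1 had 57.1, 66.3, 58 and 64.4 against 43, 41.7, 36.9 and 39.6 CPM (-0.61 ± 0.09, adjusted p = 0.00186), and the TGF-beta induced matrix protein Tgfbi fell by 0.94 ± 0.17. Of 25 TGF-beta pathway genes 3 were called, all lower, while their median was 0.06. The membrane repair protein Myof, counted with YAP targets, had 14.2, 27.6, 17.5 and 39.9 against 13.2, 8.25, 4.69 and 10.4 CPM (-1.44 ± 0.32, adjusted p = 0.0163; 0.0563 in the fit of the 8 tumor libraries alone). The peptidase Ace, which makes angiotensin II, had 115 ± 74.7 CPM in control and 28.3 ± 18.3 in TCM tumors (SD, n = 4; -2.02 ± 0.46) and lost its call without control tumor 2 or TCM tumor 3 (p of 0.0612 to 0.0653 after adjustment).

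The other large falls by the same rule had calls that ended when 1 library was left out. Kdelr3, a receptor that returns proteins to the endoplasmic reticulum, had a log2 fold change of -2.09 ± 0.59 (-2.79 without TCM tumor 4) and lost its call without any 1 library but TCM tumor 4 (p of 0.052 to 0.132 after adjustment). Tenascin C (Tnc) had 5.58, 4.85, 3.41 and 34 CPM in control and 3.34, 2.36, 2.89 and 1.71 in TCM tumors (-2.22 ± 0.63), and Emilin2 had 3.61, 4.23, 3.28 and 21.8 against 2.73, 2.05, 1.66 and 1.85 (-1.98 ± 0.56). In both matrix genes control tumor 4 was far above the rest, and without it the values were -0.83 and -0.82. Tnc and Emilin2 lost their calls without control tumor 2 or 4 or any 1 TCM tumor (p of 0.0524 to 0.229 after adjustment and 0.053 to 0.141). A second gene with the symbol Zc3h11a (-2.58 ± 0.72) shares 100% of its words with other genes, and its call ended without control tumor 1, 2 or 3 or TCM tumor 1, 3 or 4 (0.062 to 0.114).

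Interferon-stimulated genes were lower in TCM tumors, with 10 of 54 called, all lower, 47 negative values and a median of -0.40. The double-stranded RNA sensor Oas3, an oligoadenylate synthetase that activates RNase L, had 7.67, 3.81, 4.89 and 7.34 CPM in control and 1.34, 1.3, 0.577 and 0.753 in TCM tumors. All 4 TCM tumors were below the lowest control and the means differed 5.97-fold (log2 -2.56 ± 0.33, adjusted p = 0.000967). Oas2 had 4.75, 4.43, 4.82 and 4.36 against 2.31, 0.993, 0.938 and 0.821 CPM (-1.84 ± 0.40, adjusted p = 0.015), and Oas1a had 43.8, 27.6, 23.8 and 28.4 against 13, 17.5, 22.8 and 13.3 (-0.89 ± 0.23, adjusted p = 0.0286; 57.6% of its words shared). The nucleic acid sensor Zbp1 had 20.2, 19.6, 22.3 and 13.4 against 8.93, 13.2, 6.06 and 6.3 CPM (-1.13 ± 0.25, adjusted p = 0.0163). In all 4 genes the groups did not overlap. Irf7, the master regulator of type I interferon responses, had 59.5, 37.3, 52 and 22.8 CPM in control and 23.3, 19.2, 19.9 and 15.8 in TCM tumors (-1.13 ± 0.29, adjusted p = 0.0298), with control tumor 4 among the TCM values. Isg15 (-0.58 ± 0.18, adjusted p = 0.0633) and Ifit1 (-0.92 ± 0.27, adjusted p = 0.0531), chosen after their values were seen, were not called. The count was 5, 5 and 4 without control tumor 1, 2 or 3 and 4, 5 and 4 without TCM tumor 1, 3 or 4. Oas2 and Zbp1 lost their calls without TCM tumor 3 (adjusted p = 0.0521 and 0.0557), Oas1a without control tumor 1 or 2 or TCM tumor 1, 2 or 4 (0.0554 to 0.101) and Irf7 without any 1 library but control tumor 4 (0.0506 to 0.0926).

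The promoter windows of Oas3 and Oas1a are shown because they hold the letters of an interferon-stimulated response element. They lie at chr5:120777610-120777909 and chr5:120907476-120907775, both on the minus strand (RefSeq, GRCm38.p6), and are written 5′ to 3′ along the gene with GAAANNGAAA in capitals, where overlapping matches are joined.
Oas3: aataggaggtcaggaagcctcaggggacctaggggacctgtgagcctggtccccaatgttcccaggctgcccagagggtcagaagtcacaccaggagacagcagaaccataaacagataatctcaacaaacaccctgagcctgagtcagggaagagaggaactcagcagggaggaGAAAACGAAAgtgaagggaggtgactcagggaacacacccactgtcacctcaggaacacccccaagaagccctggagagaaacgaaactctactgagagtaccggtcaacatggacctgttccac
Oas1a: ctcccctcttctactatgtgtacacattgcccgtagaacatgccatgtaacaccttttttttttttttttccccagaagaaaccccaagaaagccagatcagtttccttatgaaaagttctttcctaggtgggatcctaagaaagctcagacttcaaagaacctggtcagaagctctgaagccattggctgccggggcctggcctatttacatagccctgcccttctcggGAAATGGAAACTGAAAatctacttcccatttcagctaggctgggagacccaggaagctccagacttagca
The match of Oas1a lies closer to its transcription start than that of Oas3. GAAANNGAAA, searched on both strands, occurred in 23 of 38 tested interferon-stimulated genes with a window (60.5%) and in 3.84% of all 10509 tested genes with a window. Of the 5 called members with a window it occurred in these 2 and was not found in Oasl2, Irf7 and Ifi35. A window without these letters says nothing about the factor that binds there.

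Macrophage markers were lower in TCM tumors, and control tumor 4 had a large part in the size of these falls. Of 21 markers of recruited and lipid-associated macrophages, 7 were called, all lower, with a median of -1.125. Without control tumor 4 the count was 3 and the median -0.82, and the count was 3 and 4 without TCM tumor 3 or 4. Their summed level overlapped, at 2747 to 4468 CPM in control and 2214 to 3137 in TCM tumors. Their mean log2 level did not overlap, at 0.112 to 1.158 against -0.782 to -0.262. Gpnmb, a glycoprotein of lipid-loaded macrophages, had 14.6, 8.8, 5.72 and 45.1 CPM in control and 1.7, 3.41, 0.361 and 1.03 in TCM tumors (-3.49 ± 0.68, adjusted p = 0.00919). Without control tumor 4 its log2 fold change was -2.55 and without TCM tumor 2 -4.12, and the groups did not overlap. The lipid receptor Trem2 had 1.97, 1.52, 0.964 and 6.03 against 0.608, 0.496, 0.649 and 0.274 CPM (-2.36 ± 0.52, adjusted p = 0.0152; -1.52 without control tumor 4), and the chitinase-like Chil3 had 3.11, 2.56, 0.836 and 13 against 0.0608, 0.62, 0.216 and 0.137 (-4.19 ± 0.86, adjusted p = 0.0117; 29.4% of its words shared; -3.01 without control tumor 4 and -5.08 without TCM tumor 2). Both kept their calls without any 1 library, but Trem2 lost its call in the fit of the 8 tumor libraries alone (adjusted p = 0.0536) and Chil3 with the mouse as a random block in limma-voom (adjusted p = 0.0745). The inhibitory leukocyte receptor gene Lilr4b had 3.17, 3.26, 2.38 and 12.7 CPM in control and 1.28, 1.49, 0.577 and 1.16 in TCM tumors (-2.24 ± 0.51, adjusted p = 0.0172), with -1.36 without control tumor 4 and no call without TCM tumor 3 (adjusted p = 0.059). Cathepsin S (Ctss), a protease of antigen presentation, had 65.7, 65, 69.1 and 69.6 CPM in control and 36.9, 35.2, 20.2 and 17.9 in TCM tumors (-1.29 ± 0.27, adjusted p = 0.0137), and control tumor 4 did not stand out in it.

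Other leukocyte markers varied with single tumors. Of 20 Kupffer cell markers, which mark the resident macrophages of the liver, 3 were called, all lower, and their summed level was 610.5 to 715 CPM in control and 310.5 to 664 in TCM tumors; the count was at most 1 without control tumor 1, 2 or 3 or TCM tumor 2, 3 or 4. The Kupffer genes Clec4f (0.05 ± 0.34, adjusted p = 0.95) and Timd4 (0.68 ± 0.66, adjusted p = 0.56), chosen after their values were seen, were not called. Summed neutrophil markers were 21.2 to 152.5 CPM in control and 10.7 to 23.95 in TCM tumors, the highest being control tumor 4, and the marker Stfa1 was at 0. The calprotectin gene S100a8 had 2.35, 2.91, 1.41 and 34.4 CPM in control and 1.94, 0.744, 0.433 and 1.09 in TCM tumors (-3.27 ± 0.86, adjusted p = 0.0328); without control tumor 4 the value was -1.05, and the call was lost without control tumor 4 or any 1 TCM tumor (0.0502 to 0.148). Stellate cell and fibroblast markers summed to 423 to 834.9 CPM in control, again highest in tumor 4, and to 381.1 to 527.3 in TCM tumors. The part of such cells in the results above was not tested. CD47, the surface signal that keeps macrophages from engulfing a cell, had 149, 129.6, 132 and 119 CPM in control and 88.2, 84.9, 77.7 and 90.3 in TCM tumors (-0.63 ± 0.09, adjusted p = 0.00119), with little spread in either group.

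No member of several other marker lists was called by edgeR. Of 20 T and NK cell markers 2 had an unadjusted p under 0.05 and DESeq2 called 0, and of 15 B and plasma cell markers 7 had such a p and DESeq2 called 3, all higher. For 17 sinusoidal endothelial markers these numbers were 1 and 0, and for 10 dendritic and mast cell markers 0 and 0. Vwf, a protein of larger vessels, was the 1 called among 19 capillary and vessel markers, with 15.7, 13.3, 9.64 and 16.5 CPM in control and 5.17, 5.15, 7.43 and 6.91 in TCM tumors (-1.16 ± 0.19, adjusted p = 0.00367). Among 26 genes of Ras and its regulators, 0 were called by edgeR, 5 had an unadjusted p under 0.05 and DESeq2 called 1, lower. Nras (-0.27 ± 0.28, adjusted p = 0.589) was not called.

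Acute phase proteins, which hepatocytes secrete under IL-6, were lower: 6 of 33 were called lower and 1 higher, with a median of -0.48. Without control tumor 4 the median was -0.335, with 6 called lower and 2 higher. The LPS-binding protein Lbp had 65.4, 71.2, 61.3 and 67.2 CPM in control and 37.6, 45.8, 33.3 and 36.5 in TCM tumors (-0.79 ± 0.16, adjusted p = 0.011). The protease inhibitor A2m was low, with 2.28, 1.94, 1.61 and 6.57 against 0.243, 0.496, 0.577 and 0.342 CPM (-2.89 ± 0.47, adjusted p = 0.00367; -2.20 without control tumor 4). Fgl1, a fibrinogen-like hepatokine, had 549.7 ± 55.8 CPM in control and 198 ± 143 in TCM tumors (SD, n = 4; -1.47 ± 0.34, adjusted p = 0.0188), with TCM tumor 4 nearest to the controls. The 1 member called higher was Hamp, hepcidin, with 19.9, 9.49, 16.6 and 59.6 against 166, 147, 116 and 19.4 CPM (2.08 ± 0.59, adjusted p = 0.0424), where TCM tumor 4 lay within the range of the controls. The count of lower calls was 3, 2 and 3 without control tumor 1, 2 or 3 and 3 and 2 without TCM tumor 1 or 3. Fgl1 lost its call without control tumor 2 or TCM tumor 3 (0.0551 to 0.0566) and Hamp without control tumor 1, 2 or 3 or TCM tumor 1, 2 or 3 (0.0796 to 0.113), with 2.88 without control tumor 4. The co-chaperone Dnajb1 also fell, from 50.9 to 65.7 to 19.6 to 37.8 CPM (-1.11 ± 0.24, adjusted p = 0.0137).

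Of 31 oncofetal and liver tumor markers, edgeR called 2, both lower in TCM tumors: the efflux pump Abcc4, given above, and the surface glycoprotein Cd24a (-1.55 ± 0.45, adjusted p = 0.0479). The median of the list was -0.51, 23 of 31 had a negative value, and DESeq2 called 5, all lower. Neither call held without control tumor 2, without TCM tumor 3 or in the fit of the 8 tumor libraries alone, and 1 call was left without control tumor 3 or TCM tumor 1 or 2. The best known markers were not called by edgeR. Alpha-fetoprotein (Afp), a fetal albumin relative, had 668, 944, 257 and 378 CPM in control and 351, 299, 294 and 293 in TCM tumors (-0.86 ± 0.54, adjusted p = 0.343). The proteoglycan Gpc3 had 761, 701, 373 and 294 against 116, 534, 438 and 79.3 CPM (-0.87 ± 0.63, adjusted p = 0.423), and osteopontin (Spp1), chosen after its values were seen, had 880.4, 2166, 1859 and 2205 against 1212, 613, 386 and 1214 (-1.05 ± 0.44, adjusted p = 0.156). The groups overlapped in all 3, and Afp varied more among control than among TCM tumors. The imprinted genes Igf2 (-1.92 ± 1.18, adjusted p = 0.336) and H19 (0.36 ± 0.64, adjusted p = 0.772) and albumin itself (0.09 ± 0.24, adjusted p = 0.854) were not called.

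A test of the difference between the TCM effect in tumors and that in peri-tumor liver called 165 genes (1.11%), 83 of them among the 1082 called in tumors. The tissues come from the same 8 mice, which this fit does not model; with the mouse as a random block in limma-voom (correlation 0.143), 441 genes were called. In 63 of these 83 the effect was larger in tumors, which their choice by a call in tumors favors. Haao, Dmgdh, Car5a and Pemt were of this kind. Haao had 426 ± 57.4 CPM in control and 399 ± 36 in TCM peri-tumor liver (SD, n = 4), a log2 fold change of -0.10 ± 0.14 there, and the effect in tumors was larger by 1.19 ± 0.20 (adjusted p = 0.00807). The same difference was 1.12 ± 0.24 for Dmgdh (adjusted p = 0.04), 1.17 ± 0.17 for Car5a (adjusted p = 0.00373) and 1.35 ± 0.19 for Pemt (adjusted p = 0.00232). In these 4 genes TCM tumors lay between control tumors and peri-tumor liver.

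For other genes the group means differed in opposite directions in the 2 tissues. Rrm2 had 10.9 ± 2.77 CPM in control and 5.91 ± 1.51 in TCM peri-tumor liver, against 12.1 ± 0.693 and 22.7 ± 3.31 in tumors (difference of effects 1.79 ± 0.27, adjusted p = 0.00499). Igfbp3 had 13 ± 3.54 and 25.2 ± 4.71 CPM in peri-tumor liver (-3.06 ± 0.53, adjusted p = 0.0103), and Btc 1.51 ± 0.735 and 3.52 ± 0.787 (-2.27 ± 0.38, adjusted p = 0.00807). Cd47 hardly differed in peri-tumor liver, with 60.4 ± 2.64 and 63.5 ± 2.84 CPM (-0.71 ± 0.12, adjusted p = 0.0101). The difference did not pass the test for Cyp3a11 (0.28 ± 0.39, adjusted p = 0.765), Cyp8b1 (0.13 ± 0.62, adjusted p = 0.941), Nrg4 (-0.23 ± 0.54, adjusted p = 0.866) and Oas3 (0.05 ± 0.47, adjusted p = 0.97), whose log2 fold changes in peri-tumor liver were 2.15 ± 0.29, 3.03 ± 0.45, -2.01 ± 0.39 and -2.61 ± 0.33. The lowest p of this test belonged to short or shared transcripts and 1 protease: Cox7c, the mitochondrial tRNA mt-Tp (2.32 ± 0.22), Prtn3 (5.29 ± 0.57), Zbed5 (-1.62 ± 0.18) and the pseudogenes Rpl35a-ps3 and Tubb4b-ps1, with 100% and 56.8% of their words shared. Without TCM tumor 3, 58 genes were called by this test, and 74, 71 and 78 without control tumor 1, 2 or 3; leaving out TCM tumor 1 lowered the count by over 1.5 times too, against 269 and 270 without control tumor 4 or TCM tumor 4.

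**Figure D5:**
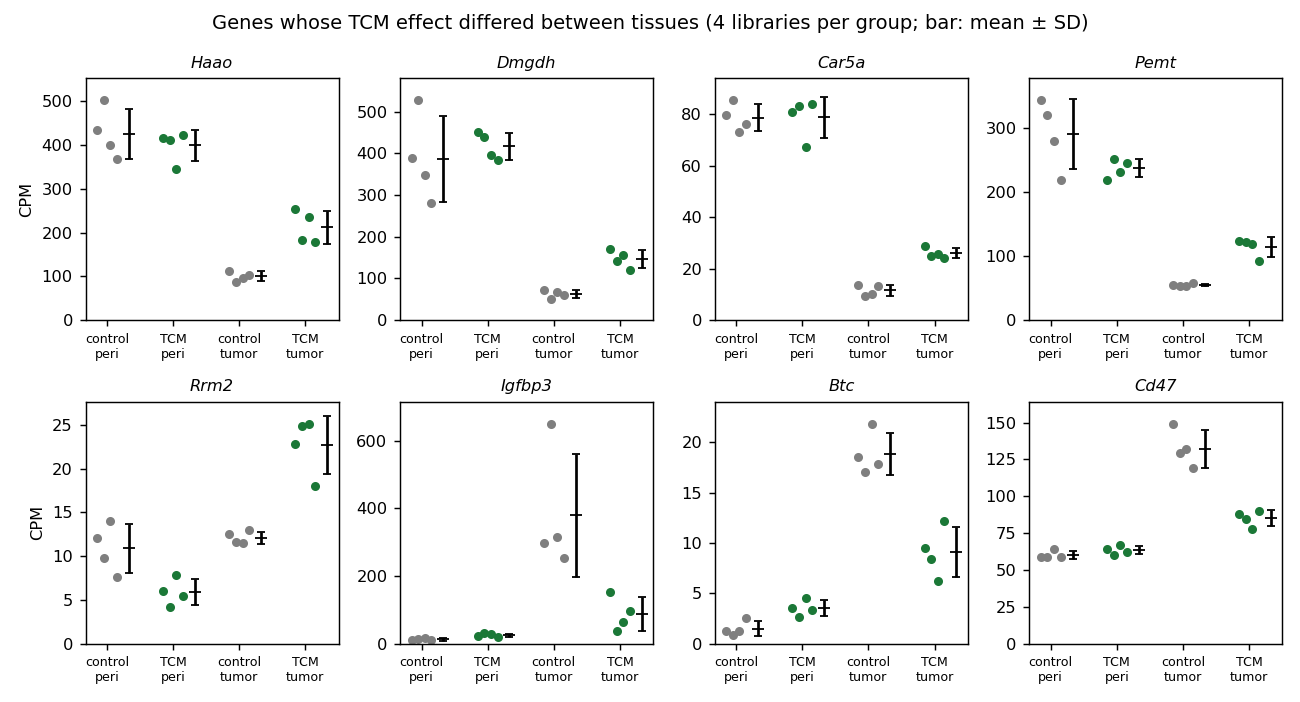
CPM of 8 genes in each of the 16 libraries, by tissue and treatment (grey, control; green, TCM), with the group mean and SD (n = 4) as bars. In Haao, Dmgdh, Car5a and Pemt the TCM tumors lie above the control tumors while the peri-tumor groups overlap, and in Rrm2, Igfbp3 and Btc the means differ in opposite directions in the 2 tissues.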

How the data were processed

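The mRNA of tumor and peri-tumor liver was sequenced from stranded libraries, per the labels' protocols. The authors deposited whole-number counts per gene and FPKM values; the sources used here do not give the aligner, the counter or its strand setting. Counts were fitted over all 16 libraries by group (12 residual degrees of freedom) with edgeR 4.0.16 in R 4.3.3: TMM scaling, a filter at a count minimum of 10 (filterByExpr), the quasi-likelihood F test and Benjamini-Hochberg adjustment over 14865 genes, with calls at an adjusted p under 0.05. The deposited FPKM served to compare levels between genes. The animal codes give each library its mouse, and 1 mouse gave 1 tumor library. Alternatives used DESeq2 1.42.0, limma 3.58.1 (voom), other scalings and filters, and libraries left out in turn. The test was tested on simulated data: 64.6% of genes changed 2-fold and 82% of those changed 4-fold were recovered in the tumor comparison (14650 genes). Of its 158 calls 12 were false. The simulated libraries were drawn independently, with no tumor made to stand apart and no shared mouse, unlike the data. Shared sequence is the percent of 50-base words of a gene's longest transcript that also occur in other genes.

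Named genes are the 12 largest rises and 12 largest falls that were called, without overlap and above a mean of 5 CPM in 1 group, the 10 lowest p, the called members and up to 6 members of lowest p of each list (at least 1 CPM), 6 genes of the interaction, and genes followed throughout. The comparison and the lists were chosen with earlier results of these data known. Some genes are not reported here.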

Additional observations from a re-analysis of the deposited data

Results flagged for a closer look

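Within each group of 4 tumors, the highest or lowest library was checked for a wide gap to the others. Such a gap was found in 36 of 370 groups of gene values and 17 of 138 groups of list levels. Chance gives about 1 in 20 for independent, normally distributed values. The genes were those followed in the report, which vary together and were in part chosen after their values were seen. The counts therefore cannot be weighed against that rate. Control tumor 4 was the library concerned in 20 of the 36 and in 7 of the 17. Values below are CPM, followed by the range of the other 3 libraries.

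Control tumor 4 was higher than the other controls in genes of neutrophils and macrophages: Ccl6 at 45.4 (7.78 to 11.5), Cd68 at 30.2 (10 to 12.4), Csf3r at 28.8 (2.7 to 2.79), Itgam at 25.6 (1.01 to 2.64), Lilr4b at 12.7 (2.38 to 3.26), Mmp9 at 33.4 (0.321 to 1.59), S100a8 at 34.4 (1.41 to 2.91) and S100a9 at 34.4 (0.771 to 2.42). It was also higher in hepatocyte genes, Cyp2c55 at 1.79 (0.129 to 0.254), Elovl3 at 6.93 (0 to 0.0643), Mup10 at 56.8 (1.25 to 8.36), Mup7 at 589 (2.56 to 20.9), Notum at 3.28 (1.84 to 2.01), Oat at 45.7 (11.4 to 16.5) and Pemt at 58.0 (53.5 to 54.1), and in A2m at 6.57 (1.61 to 2.28), Ankrd1 at 6.03 (1.52 to 1.94), Emilin2 at 21.8 (3.28 to 4.23) and Tnc at 34.0 (3.41 to 5.58). It was lower in Cyp2a5 at 409 (1466 to 1589). Control tumor 2 was higher in Hbegf at 14.6 (7.13 to 8.11), Igfbp3 at 649 (254 to 315) and Serpina3n at 1521 (1061 to 1084) and lower in Aldh1a7 at 28.2 (55.1 to 59.8) and Il34 at 2.91 (5.9 to 6.21). Control tumor 1 was higher in Axl at 48.0 (41.0 to 41.2).

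TCM tumor 1 was higher than the other TCM tumors in Afp at 351 (293 to 299), Igf2 at 3.46 (0 to 0.124), Keg1 at 96.5 (60.2 to 64.6), Mup10 at 330 (37.4 to 71.7), Mup7 at 2089 (170.3 to 391) and Oas2 at 2.31 (0.821 to 0.993). TCM tumor 2 was lower in Il34 at 1.05 (2.24 to 2.43), TCM tumor 3 higher in Cenpf at 11.5 (4.92 to 5.83), and TCM tumor 4 lower in Pemt at 91.8 (119 to 124) and higher in Prtn3 at 12.7 (3.68 to 4.44).

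Among list levels, as log2 units from the mean of the 8 tumors, control tumor 4 was higher in TGF-beta pathway genes at 0.383 (-0.083 to -0.042), annexins and S100 genes at 0.843 (-0.122 to -0.037), chemokines, cytokines and receptors at 0.54 (0.1 to 0.118), neutrophil markers at 1.951 (-0.199 to 0.065) and recruited and lipid-associated macrophage markers at 1.158 (0.112 to 0.275), and lower in MHC and antigen presentation genes at -0.191 (0.227 to 0.29) and proteasome subunits at -0.161 (0.012 to 0.041). Control tumor 2 was higher in IGF axis genes at 0.441 (-0.077 to -0.014) and cholangiocyte markers at 0.167 (-0.079 to -0.044) and lower in dendritic and mast cell markers at -0.052 (0.11 to 0.133). Control tumor 1 was lower in EGF ligands and ErbB receptors at -0.083 (0.201 to 0.228). TCM tumor 4 was lower in Slc22 and Slco transporters at -0.163 (0.358 to 0.422), Wnt targets and regulators at -0.186 (0.157 to 0.17) and iron handling genes at -0.176 (0.145 to 0.155) and higher in collagens, laminins and matrix genes at 0.265 (-0.2 to -0.13). TCM tumor 3 was higher in apolipoproteins and lipoprotein genes at 0.38 (0.049 to 0.091) and TCM tumor 2 lower in erythroid and platelet markers at -0.222 (-0.024 to 0.002).

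The interaction test of edgeR called 165 genes whose TCM effect in tumors differed from that in peri-tumor liver. Of these, 21 were among the genes followed in the report, some of them named for their low p in this test. The difference of log2 fold changes, tumor minus peri-tumor, with its SE, was positive for Aldh4a1 (0.71 ± 0.16), Atp5g1 (1.66 ± 0.26), Car5a (1.17 ± 0.17), Cox7c (2.68 ± 0.26), Dmgdh (1.12 ± 0.24), Haao (1.19 ± 0.20), Hectd2os (2.33 ± 0.46), Notum (2.17 ± 0.45), Pemt (1.35 ± 0.19), Prtn3 (5.29 ± 0.57), Rpl11 (2.04 ± 0.29), Rpl35a-ps3 (3.35 ± 0.44), Rrm2 (1.79 ± 0.27) and mt-Tp (2.32 ± 0.22). It was negative for Btc (-2.27 ± 0.38), Cd47 (-0.71 ± 0.12), Igfbp3 (-3.06 ± 0.53), Il34 (-2.05 ± 0.47), Mdm2 (-1.08 ± 0.25), Tubb4b-ps1 (-1.70 ± 0.22) and Zbed5 (-1.62 ± 0.18).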

How the results depend on the processing

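Under the scalings, filters, tests and left-out libraries tried, no followed gene called in tumors changed direction. The tumor comparison gave 1082 calls, 687 with no filter on low counts, 786 in the fit of only the 8 tumor libraries, 1805 with DESeq2, 2193 with limma-voom and sample weights, 1877 without both libraries of control mouse 4, and 404 to 1250 when each tumor library was left out in turn. The test of the difference between tissues gave 165 calls, 79 with no filter, 806 with DESeq2, 603 with limma-voom and sample weights, 441 with the mouse as a random block in limma-voom, 714 without both libraries of control mouse 4, and 58 to 270 when each tumor library was left out. The causes were not tested. With the replicate number as a block, 1088 genes were called in tumors, 85.1% of the 1082 among them, and 122 for the difference; same-numbered libraries did not deviate together (r -0.101 to -0.004), so the numbers were not read as pairs. Of 139 called genes followed through all settings, 69 kept their call without any 1 tumor library and 70 lost it at least once. The next lists cover followed genes given with their tumor fold change in the Results, and leave out genes named without it. Abcc4, Ace, Cyp2c29, Cyp2c40, Cyp2c50, Cyp2c54, Emilin2, Erbb4, Etv4, Fgl1, Hamp, Kdelr3, Lilr4b, Myof, Oas1a, Otc, S100a8, Tnc and Trem2 lost their call in the fit of only the 8 tumor libraries. With the mouse as a random block, Chil3, Cyp2b10, Cyp2c54, Emilin2, Erbb4, Hamp, Hamp2, Lilr4b, Notum, S100a8 and Tnc lost it. With no filter, Aurka, Cyp2b10, Cyp2c40, Emilin2, Erbb4, Etv4, Hamp, Hamp2, Kdelr3, Tnc and Zc3h11a lost it, and with sample weights Cyp2b10, Emilin2, Hamp2, S100a8 and Tnc. The replicate block ended the calls of Cyp2c29, Cyp2c50, Emilin2, Erbb4, Etv4, Hamp, Hamp2, Kdelr3, S100a8 and Tnc. DESeq2 ended the call of S100a8. RLE scaling ended that of Cyp2c40, and so did a filter of 1 CPM in 4 libraries. With 4 libraries a group, genes of low counts and genes that vary between tumors are the least precise, and fold changes of genes near 0 counts depend on the prior count.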
